A study of Mus musculus with 24 samples.

Results

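Tns1 and Palld encode adaptor proteins of the actin cytoskeleton, and their transcripts were followed here in kidney and testis of mice irradiated for 485 days at 3 dose rates. Both were selected on kidney values, as focal adhesion and actin-binding genes that were lower in irradiated kidney, so their kidney values are given as a description and carry no test. Each gene was represented by 1 probe, so that they made up 2 of 46116 probes and 2 of the 8127 genes that could be named. The Tns1 probe (6940458, NCBI gene 21961) reports a gene at position 73910232 to 74124548 of chromosome 1, and the Palld probe (4810600, NCBI gene 72333) a gene at 61511431 to 61902707 of chromosome 8 (GRCm38.p6). The exon or transcript variant that each probe reads is not known from the files.

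The arrays were Illumina Mouse-6 bead arrays, 12 hybridised with kidney RNA and 12 with testis RNA, 24 in all. Controls were not irradiated, and the low, mid and high groups received 137Cs γ-rays at 0.032, 0.65 and 13 μGy/min for 22 h per day, which amounted to 21, 420 and 8000 mGy. Each group had 3 arrays in each tissue, and organs were taken directly after exposure ended. No allele or agent other than γ-rays is named in the labels, and strain and age are not stated there. The labels count 12 mice, 3 for each condition, without tying a kidney array to a testis array. Nothing else says how samples were drawn, so the spread between arrays may be partly technical.

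Tensins sit in focal and fibrillar adhesions, where they bind the cytoplasmic tails of β integrins and the ends of actin filaments and so couple the extracellular matrix to the cytoskeleton. Palladin is an actin-bundling scaffold of stress fibres, focal adhesions and podocyte foot processes that brings α-actinin, VASP family proteins and other actin regulators together. In mice, loss of Tns1 leads to cystic kidneys and renal failure, and loss of Palld is lethal before birth.

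The promoters are shown because the 2 transcripts varied together over the kidney arrays, and the windows set their upstream sequences side by side. The RefSeq tables of GRCm38.p6 list 1 start for Tns1 and 3 starts for Palld, all on the minus strand, and each window covers the 250 bases before a start. Capitals mark matches on either strand to TEAD (GGAATG), AP-1 (TGANTCA), the GC box (GGGCGG) and the TATA box (TATAAA), and the CArG box bound by SRF was searched by name as well.
Tns1, chr1:74124549-74124798, minus strand: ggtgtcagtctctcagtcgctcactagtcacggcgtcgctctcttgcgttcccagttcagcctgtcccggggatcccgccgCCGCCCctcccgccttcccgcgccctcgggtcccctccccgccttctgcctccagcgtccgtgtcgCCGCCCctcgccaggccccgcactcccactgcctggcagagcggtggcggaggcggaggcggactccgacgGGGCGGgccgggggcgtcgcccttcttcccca
Palld, start 2, chr8:61760090-61760339, minus strand: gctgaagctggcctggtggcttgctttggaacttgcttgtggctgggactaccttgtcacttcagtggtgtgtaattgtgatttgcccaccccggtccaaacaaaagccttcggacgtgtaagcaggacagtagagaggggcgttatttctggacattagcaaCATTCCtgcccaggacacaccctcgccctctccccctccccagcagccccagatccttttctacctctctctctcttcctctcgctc
Palld, start 3, chr8:61591140-61591389, minus strand: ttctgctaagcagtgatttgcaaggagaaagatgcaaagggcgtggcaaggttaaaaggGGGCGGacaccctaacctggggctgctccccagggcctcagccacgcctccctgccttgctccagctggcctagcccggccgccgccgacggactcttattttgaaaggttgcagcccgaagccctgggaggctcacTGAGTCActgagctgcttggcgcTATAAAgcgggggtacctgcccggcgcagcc

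The Tns1 window had a GC content of 74.4% with 30 CpG sites and 3 GC boxes, which began 169, 103 and 32 bases before the start. Palld start 1, whose window is not printed, had a GC content of 43.2% and no match. Start 2 of Palld had 55.2% GC and 1 TEAD match 87 to 82 bases before the start. Start 3 had 62.4% GC, with a GC box 191 to 186, an AP-1 match 54 to 48 and a TATA box 31 to 26 bases before the start. None of the 4 windows held a CArG box. Over 32851 mouse windows of the same length the median GC content was 52.4%, and the share with a match was 1.47% for the CArG box, 12.6% for TEAD, 6.75% for AP-1, 32.7% for the GC box and 12.4% for the TATA box. No motif was shared by Tns1 and Palld other than the GC box, which is the most frequent of those searched. Which Palld start is used in either tissue was not measured.

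Tns1, the focal adhesion adaptor, was lower on the kidney arrays of the mid and high dose rates than on every control array. Its deposited signal was 6277, 6041 and 6488 intensity units on the control arrays and 5528, 5629 and 6159 at the low dose rate. It was 4118, 4145 and 4233 at the mid and 4918, 4789 and 4748 at the high dose rate. All 6 mid and high arrays lay below all control and low arrays, whereas the low group reached into the control range with 1 of 3 arrays. The mean signal was 92.1%, 66.4% and 76.9% of control at the low, mid and high dose rates, so the order did not follow the dose.

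Palld, the actin-bundling scaffold, was lower than every control array on all 9 irradiated kidney arrays in the deposited signals, the low dose rate included. Control arrays gave 3681, 4209 and 4350 intensity units, and low arrays 2650, 2733 and 3648. Mid arrays gave 2203, 2419 and 2659, and high arrays 2629, 2500 and 2356. Within the low group the third array stood apart, closer to the lowest control array than to the other 2 low arrays. Mean signals were 73.8%, 59.5% and 61.2% of control in the order of dose rate, and the ranges of the mid and high groups overlapped.

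**Figure D1:**
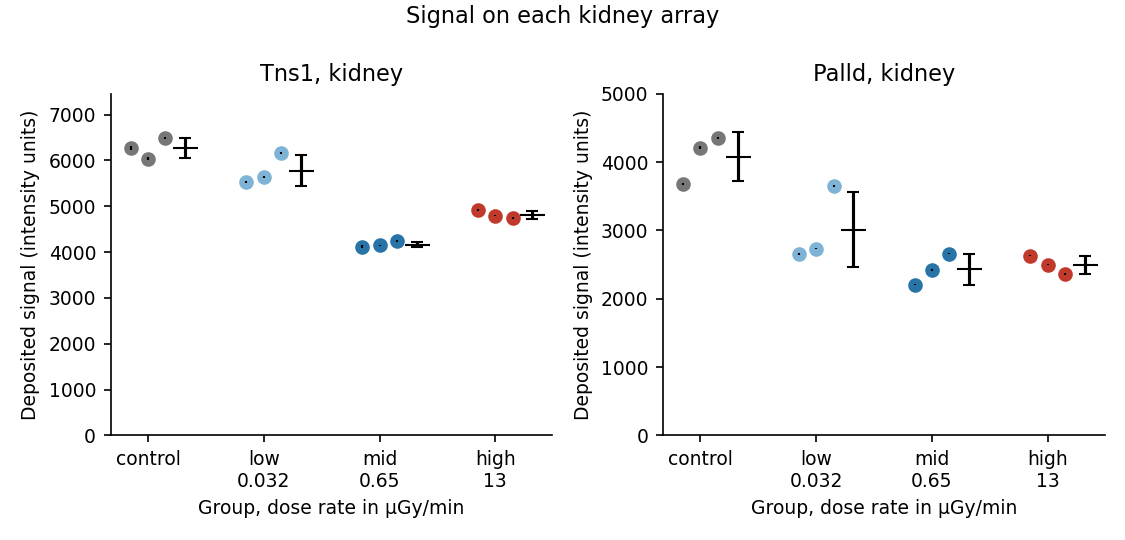
Deposited signal (intensity units) of Tns1 (left) and Palld (right) on each of the 12 kidney arrays, by group; points are arrays, the small bars on them are the standard error over beads, and the bar beside each group is the mean ± SD of 3 arrays. All mid and high arrays lie below all control arrays for both genes.

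The beads of a single array measured both transcripts far more finely than the arrays of a group varied. Each Tns1 signal was the mean of 30 to 59 beads with a standard error of 0.256% to 0.718% of the signal, and each Palld signal the mean of 35 to 47 beads with 0.298% to 0.589%. Between the arrays of a group the coefficient of variation was 1.45% to 5.87% for Tns1 and 5.47% to 18.4% for Palld. Its highest value belonged to Palld at the low dose rate. Both probes had a detection score of 1 on all 12 kidney arrays, which means that they were brighter than the negative controls there.

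After background correction and quantile normalization, the log2 level of Tns1 was 12.06 ± 0.04 at the mid and 12.14 ± 0.08 at the high dose rate, against 12.57 ± 0.13 in control (SD, n = 3 each). The log2 differences from control were −0.51 ± 0.07 at mid and −0.43 ± 0.07 at high (SE). At the low dose rate the level was 12.45 ± 0.04 and the difference −0.12 ± 0.07, and the low and control arrays overlapped. The step of Tns1 therefore lay between low and mid, where the groups differed by −0.39 ± 0.07 without overlap (12.1% of all probes were separated this way), and the difference between high and mid was +0.08 ± 0.07, with overlap.

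Palld had a log2 level of 11.48 ± 0.19, 11.22 ± 0.17 and 11.14 ± 0.07 at the low, mid and high dose rates, against 11.92 ± 0.22 in control (SD, n = 3 each). It differed from control by −0.43 ± 0.13 at low, −0.70 ± 0.13 at mid and −0.77 ± 0.13 at high (SE). Mid and high did not overlap with control, whereas on this scale 1 low array did. Between neighbouring dose rates Palld differed by −0.27 ± 0.13 (mid minus low) and −0.07 ± 0.13 (high minus mid), and the groups overlapped in both cases.

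In order from high to low, both genes ran control, low and then the 2 higher dose rates. For Tns1 the mean at high was above that at mid on both scales, while for Palld the order of these last 2 depended on the scale. In the deposited signals all high arrays of Tns1 lay above all mid arrays, a log2 difference of +0.21, while after quantile normalization they overlapped. For Palld, high minus mid was +0.04 in the deposited signals and −0.07 after normalization.

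The genes were chosen on their kidney values, so limma's adjusted p supports nothing further here. It was Benjamini-Hochberg adjusted over 10903 kidney probes, with 0.05 as the threshold. For Tns1 it was 0.0425 at mid and 0.0325 at high, and for Palld 0.0586 at mid and 0.0354 at high. Thus 1 of the 2 genes was called at mid, where 0.128% of probes were called lower, and both at high, where 0.211% were. At the low dose rate 0 probes were called by limma, which is 0% of them, while 909 had an unadjusted p under 0.05. Groups that did not overlap in the lower direction made up 6.52%, 11.2% and 7.36% of probes at low, mid and high, so the separation of both genes at mid was shared with many probes.

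At mid, the lower probes with a symbol just inside the threshold were Eef1g (−0.28) and Slco3a1 (−0.75, both adjusted p = 0.0488), and just outside came Palld itself and then Zbtb20 (−0.70, adjusted p = 0.0595). At high, Rcor1 (−0.52, adjusted p = 0.0359) and Pfkl (−0.31, adjusted p = 0.0485) were just inside, and Ankhd1 (−0.49) and Wwtr1 (−0.58, both adjusted p = 0.0518) just outside. All are limma values relative to control.

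Control probes on the kidney arrays ran along with the split at which Tns1 stepped down. The signal of mismatch probes was 5.64% ± 0.51 of that of matched probes at low, 8.69% ± 0.19 at mid and 8.29% ± 0.82 at high, against 6.13% ± 0.61 in control (SD, n = 3 each). It ran from 7.37% to 8.93% on mid and high arrays and from 5.10% to 6.82% on low and control arrays, and the high-stringency control signal ran from 54705 to 60545 intensity units on mid and high arrays and from 61448 to 64383 on low and control arrays. Neither range overlapped, and their part in the lower signals was not tested. Within each side of that gap, Palld differed by −0.43 ± 0.13 (low minus control) and −0.07 ± 0.13 (high minus mid). For Tns1 the same 2 differences were −0.12 ± 0.07 and +0.08 ± 0.07.

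Markers of cell types that could carry these transcripts were examined on the same kidney arrays, since fewer cells of a type and less RNA per cell cannot be told apart in bulk tissue. The 2 smooth muscle probes on the array, Acta2 and Cnn1, were detected on no kidney array. Endothelial markers (Emcn, Pecam1 and Eng) summed to 2606 to 2986 intensity units at high, against 2484 to 3181 in control. The endothelial ranges of the 2 groups overlapped.

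Summed signals of 2 other lists did separate from control, each at 1 dose rate. Macrophage markers (7 probes) summed to 4458 to 7364 at the low dose rate, against 2873 to 3761 in control, without overlap. Cd74 was the brightest of them, and 2 of the 7 probes were detected on no kidney array. Proximal tubule markers (Slc34a1, Slc22a6 and Slc5a2) summed to 36003 to 39952 at mid, against 42863 to 48362 in control, again without overlap, while at high they reached 39100 to 47101. Fibroblast markers, of which Dcn carried the signal while the collagen probes were not detected, summed to 1270 to 2031 at high and 1754 to 2189 in control, with overlap. None (0) of these marker probes passed limma's threshold against control. Of all kidney probes 0%, 0.312% and 0.504% did so in either direction at low, mid and high. The part of the markers in the Tns1 and Palld values was not tested.

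The rule did not use the testis arrays, although they may come from the same mice as the kidney arrays, and neither transcript passed the test in testis at any dose rate. On simulated data that test recovered 0% of log2 changes of 0.5 in the testis high comparison. The changed probes were drawn at random from all tested probes. For such probes, not passing says little about changes of that size. For Tns1 and Palld themselves the unadjusted 95% intervals at high ran down to −0.42 and −0.35, short of a fall of 0.5. Tns1 signals were 1027, 1043 and 1011 intensity units on the control arrays and 904, 1096 and 1103 at the low dose rate. They were 1029, 946 and 855 at mid and 914, 897 and 888 at high. The high arrays all lay below the control arrays, whereas low and mid arrays lay on both sides of some control arrays.

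Palld signals in testis were 1752, 1903 and 1753 intensity units in control and 1631, 1717 and 2022 at the low dose rate. They were 1751, 1764 and 1477 at mid and 1769, 1461 and 1708 at high. Every irradiated group overlapped with control. Both probes were well above the testis noise, with Tns1 at 6.65 to 13.0 times and Palld at 11.5 to 20.5 times the noise limit of their array. The kidney and testis signals were normalized separately, so levels are not compared between the tissues.

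**Figure D2:**
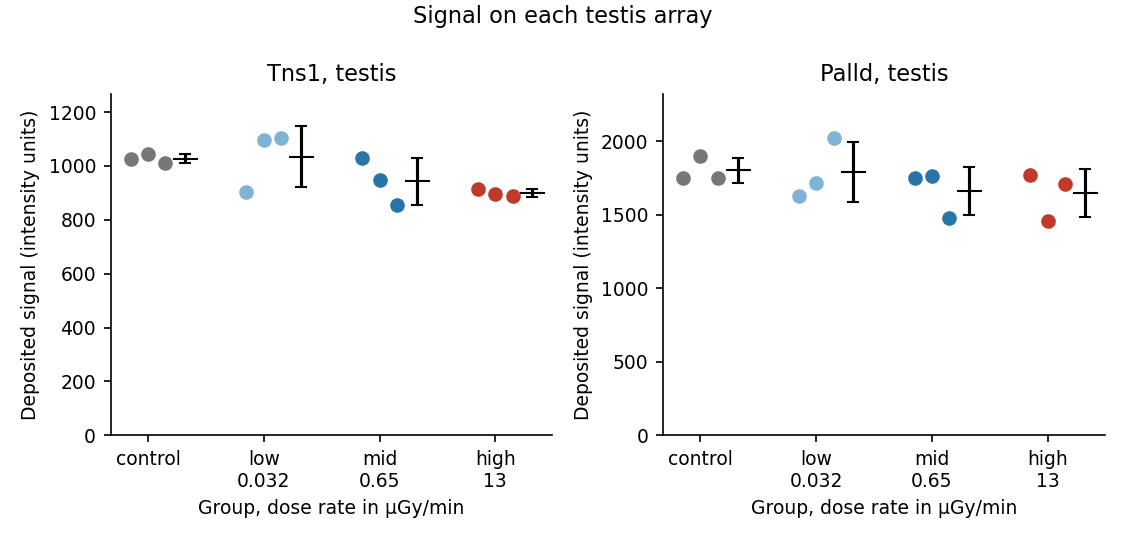
Deposited signal (intensity units) of Tns1 (left) and Palld (right) on each of the 12 testis arrays, by group; points are arrays and the bar beside each group is the mean ± SD of 3 arrays. The 3 high arrays of Tns1 lie below its control arrays, and the other irradiated groups overlap with control.

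On the log2 scale, testis Tns1 differed from control by +0.04 ± 0.13 at low, −0.09 ± 0.13 at mid and −0.13 ± 0.13 at high (SE). The limma adjusted p over 28816 probes was 1, 0.931 and 0.811. Lower groups without overlap, as seen for Tns1 at high, made up 8.04% of all testis probes in that comparison. The 95% interval of the high difference ran from −0.42 to 0.17.

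Testis Palld differed from control by +0.04 ± 0.14 at low, −0.06 ± 0.14 at mid and −0.03 ± 0.14 at high (SE), with limma adjusted p of 1, 0.959 and 0.968. Its 95% interval at high ran from −0.35 to 0.28 and at mid from −0.38 to 0.25. Whether the tissues differ was not tested, because kidney values chose the genes. Of all testis probes, 0.0174% were called at low, 0.0521% at mid and 0.0174% at high in either direction.

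**Figure D3:**
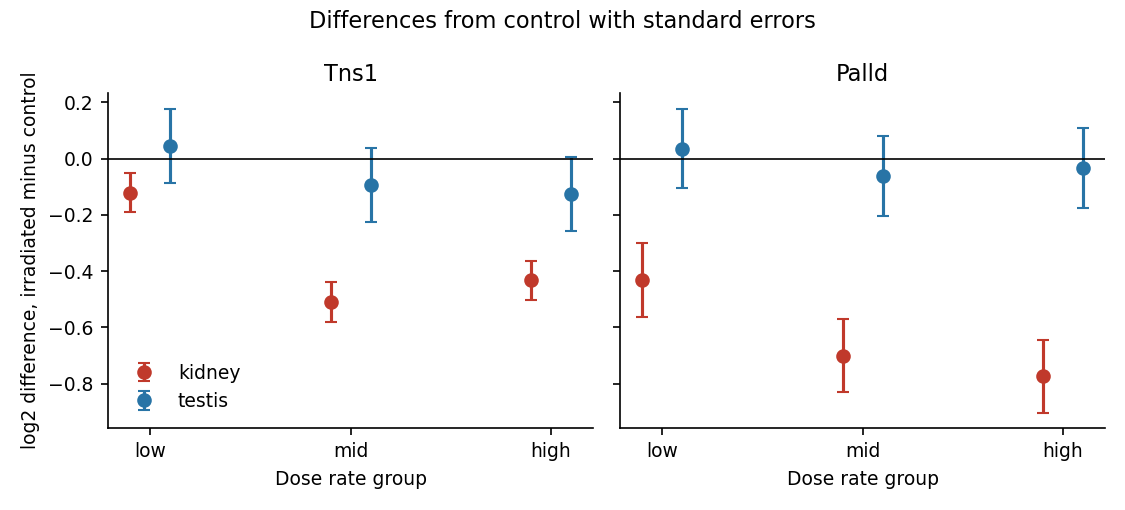
Log2 difference of irradiated minus control in kidney (red) and testis (blue) at the 3 dose rates, for Tns1 (left) and Palld (right); bars are the limma standard error. Kidney values reach −0.51 for Tns1 and −0.77 for Palld, while testis values lie between −0.13 and +0.04. Kidney values chose the genes. The testis test recovered 0% of simulated log2 changes of 0.5 at high, on probes drawn at random from all those tested.

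Tns1 and Palld were each other's closest match among 3437 named kidney probes, with r = 0.89 over the 12 arrays. The arrays share normalization and group, and both genes had been chosen as lower in irradiated kidney, so part of this likeness was set by the choice. After each group's mean was subtracted, r was 0.71. Of the probes named below for Palld, Ubap2l (0.93) and Sfpq (0.86) were then more like it than Tns1 was, and Pigs (0.56) less. Array by array, the highest levels of both genes fell on the same control array and the lowest on the same mid array. With the deposited signals, or with median scaling in place of quantile normalization, r was 0.87 and 0.86, settings chosen after seeing the data.

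The kidney probes next most like Tns1 included Pdlim7 (r = 0.88), a PDZ and LIM domain protein of actin filaments, Papola (0.88), a poly(A) polymerase, and Pigs (0.86), which acts in GPI anchor transfer. Those most like Palld after Tns1 included the splicing factor Sfpq (0.87), Ubap2l (0.86) and Pigs (0.86). At the other end stood Rps4x (−0.91), a ribosomal protein, Eef1a1 (−0.89), a translation elongation factor, and Acer3 (−0.87) for Tns1. For Palld these were Eef1a1 (−0.93), Mon1b (−0.92) and Krba1 (−0.89). All are Pearson r over 12 arrays, given as a description.

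Eef1a1 was among the least alike for both genes and showed the opposite course. It was read by a dim probe, and which transcript that probe reads is not known. Its deposited signals were 302 to 366 at mid and 368 to 458 at high, against 143 to 230 in control. No mid or high array overlapped with control. After normalization, 9.67% of kidney probes at mid and 6.46% at high were higher than control without overlap. Eef1a1 was picked as least alike on these same arrays. Within groups Eef1a1 still ran against Palld (r = −0.90) and Tns1 (r = −0.81). Pdlim7 was dim in kidney (signals of 73.0 to 114) and differed from control by −0.07 ± 0.04 at mid and −0.06 ± 0.04 at high (SE, limma adjusted p = 0.514 and 0.597). In the deposited signals its mean was 78.3 at mid and 77.3 at high, against 99.5 in control. Papola followed Tns1 between groups but not within them (r = −0.02).

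In testis, whose values the rule did not use, Tns1 and Palld also ran together over the 12 arrays (Pearson r = 0.69, permutation p = 0.0125, adjusted over 2 measures 0.0251). The Spearman coefficient was 0.53 with permutation p = 0.0786, which did not pass the threshold after adjustment (0.0786). Without the 2 arrays farthest from the median Tns1 level r was 0.62 (n = 10), and after subtracting group means it was 0.68. Palld ranked 70 among 6931 named testis probes by likeness to Tns1, and Tns1 ranked 59 by likeness to Palld. So about 1.01% and 0.851% of named probes were at least as alike.

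**Figure D4:**
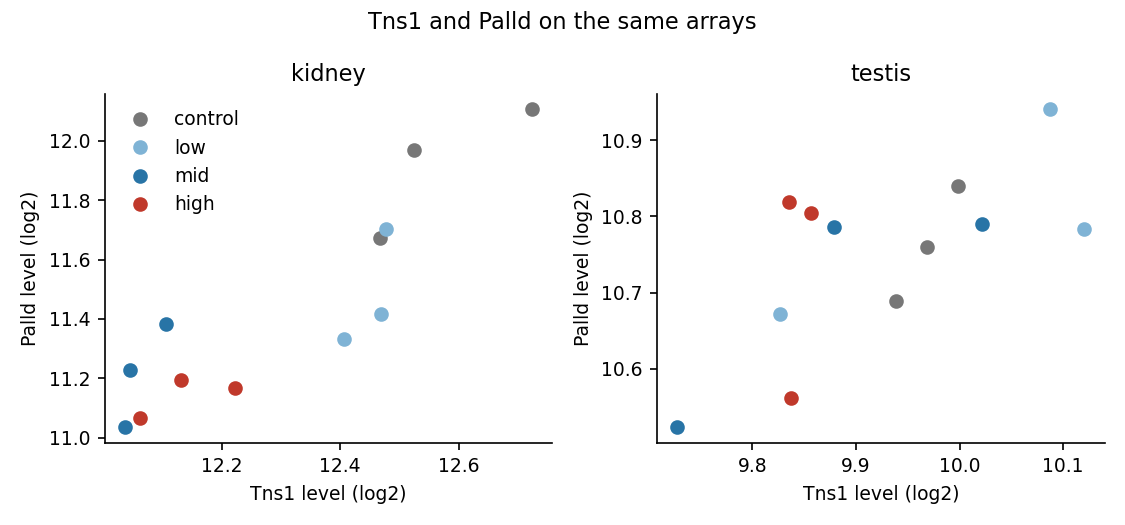
Palld level against Tns1 level (both log2, normalized within tissue) on the 12 kidney arrays (left) and the 12 testis arrays (right), coloured by group. Mid and high arrays form the lower left of the kidney panel, whereas testis groups are mixed.

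The relatives of the 2 genes gave little to compare with. Tns2 had 1 probe and Tns3 had 2 on the array, and none of these 3 passed the kidney detection filter. In testis all 3 passed the filter on low values but were dim, with control levels of 6.87 for Tns2 and 4.88 and 5.55 for Tns3 (log2, where the floor is 4.00). None differed from control by limma's test, the smallest adjusted p being 0.429 at high. Tns4 and the palladin relatives Mypn and Myot were matched to no probe.

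Other genes of actin and adhesion were taken from lists of 113 genes, of which 64 were on the array and 40 probes passed the kidney filter, Tns1 and Palld left out. None (0) of these 40 probes passed limma's threshold against control at any dose rate. Over all kidney probes the share called in either direction was 0% at low, 0.312% at mid and 0.504% at high. So 0 of 40 is near that share. At low 26 were lower and 14 higher (median log2 difference −0.06), at mid 18 and 22 (+0.02), and at high 28 and 12 (−0.04). The medians of all kidney probes were −0.01, −0.01 and 0.00. Without overlap and lower than control were 2, 3 and 5 of the 40, next to the shares of 6.52%, 11.2% and 7.36% over all probes. Tns1 and Palld are left out of these counts because their kidney values chose them. Log2 sizes of dim list probes depended on the processing and are not on a like scale with the bright Tns1 and Palld. For Itga6 at mid the difference ran from +0.10 to +1.13 over the processing alternatives.

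Focal adhesion core genes, the direct neighbours of tensin, had 6 probes tested, of which 4 were lower in each comparison (medians −0.10, −0.03 and −0.03). Zyx, which encodes zyxin, a LIM protein of focal adhesions and stress fibres, had signals of 2203 to 2506 at mid and 2349 to 2832 at high, against 2676 to 3143 in control. Its log2 difference was −0.29 ± 0.07 at mid and −0.27 ± 0.07 at high (SE, limma adjusted p = 0.135 and 0.147). The groups did not overlap after normalization. Itga6, which encodes integrin α6, lay on the other side at mid (+0.14 ± 0.06, adjusted p = 0.329).

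Among 22 probes of actin-binding genes, 16 were lower at low, 10 at mid and 17 at high (medians −0.06, +0.02 and −0.08). Pdlim1, a PDZ and LIM domain protein that binds α-actinin, differed by −0.40 ± 0.10 at high (adjusted p = 0.129), with signals of 328 to 413 against 415 to 517 in control. Tpm3, a tropomyosin, differed by −0.47 ± 0.10 at low (adjusted p = 0.393), with signals of 464 to 487 against 578 to 697. The same Tpm3 probe was at +0.10 at mid and −0.01 at high, and a second Tpm3 probe was at −0.01 at low. Arpc3 (+0.28) and Tpm4 (+0.23) at low, and Enah (+0.12) at mid, lay on the other side. The 6 probes of palladin's binding partners had medians of −0.09, −0.08 and −0.13, and the lowest of them was −0.18.

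Actb, which encodes β-actin, the main actin of non-muscle cells, was the list probe closest to the threshold. Its signals were 8798, 8425 and 8627 at mid and 8953, 8457 and 8729 at high, against 11063, 10777 and 10648 in control. All 6 of these irradiated arrays were below all 3 control arrays, while the low arrays (10616, 11605 and 10858) overlapped with control. The kidney control probes split at the same place, and their part in the Actb signals was not tested. The log2 difference was −0.23 ± 0.07 at mid and −0.37 ± 0.07 at high (SE, limma adjusted p = 0.217 and 0.0614). Without control array 2, or with median scaling, the adjusted p of Actb at high was 0.0328 and 0.0387. Actb belonged to the list of actins and myosin II with 7 probes tested, of which 4, 3 and 5 were lower and Myl6 was higher at high (+0.29 ± 0.11, adjusted p = 0.353, or 0.0478 without high array 2). Of 5 genes on the array from the SRF list, which does not hold Actb, 0 probes passed the kidney filter.

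**Figure D5:**
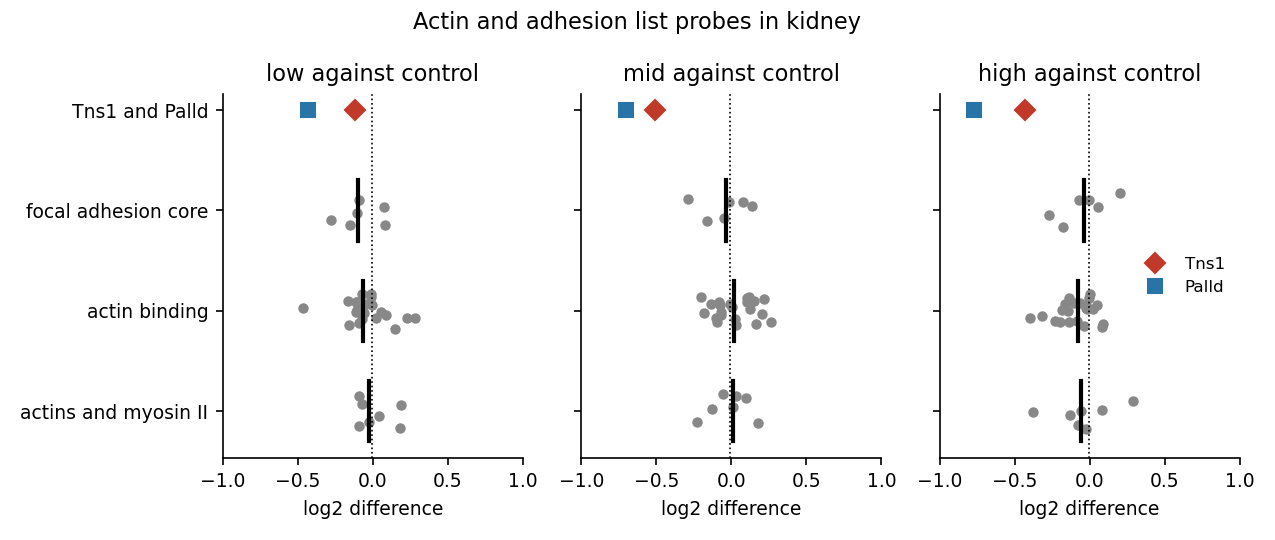
Log2 difference of irradiated minus control in kidney for Tns1 (diamond), Palld (square) and the probes of 3 gene lists (grey points, black bar at the list median), at the low, mid and high dose rates; the dotted line is the median of all probes. Tns1 and Palld were chosen for their low kidney values, so their place left of the grey points at mid and high was set by the choice. Log2 sizes of dim list probes depended on the processing and are not on a like scale with the bright Tns1 and Palld.

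In testis 59 probes of the same lists were tested and 0 passed limma's threshold at any dose rate. Of all testis probes 0.0174%, 0.0521% and 0.0174% did at low, mid and high, so 0 of 59 is near that share. Of the 59 probes, 37 were lower at low, 33 at mid and 33 at high (medians −0.10, −0.05 and −0.14, against 0.00, −0.02 and 0.00 over all probes). Among the list probes with the lowest p that were above the noise limit on all 12 arrays, the second Tpm3 probe differed by −0.46 ± 0.18 at mid (adjusted p = 0.586). The first Tpm3 probe was at +0.07 ± 0.23 in the same comparison. Itgb5, which encodes integrin β5, differed by +0.51 ± 0.16 at high (adjusted p = 0.381), and Enah by −0.64 ± 0.27 at low (adjusted p = 1). Itga6, Msn, Itga1, Svil and Pdlim7 were also among the lowest p, but they were above the noise limit on only 0 to 8 of 12 arrays.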

How the data were processed

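Kidney signals are intensity values on a linear scale that the authors exported from BeadStudio 1.5.0.34 after a rank-invariant normalization, as recorded in the file headers. The deposited detection score is a fraction from 0 to 1, and the deposited bead number and bead spread (other values per probe and array) gave the bead standard errors. Testis signals are deposited intensity values of the series' value table, and no source used here gives their normalization. A further 11 per-sample columns of difference scores were not used.

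Probes were named by the zero-padded NCBI gene ID in the target identifier through RefSeq (GRCm38.p6), which named 9832 probes. With limma 3.58.1 in R 4.3.3, kidney signals went through neqc (detection scores, offset 16) and were kept with a score above 0.99 on at least 3 arrays. Testis signals were floored at 16, put on a log2 scale and quantile normalized, and kept above the array median on at least 3 arrays. The noise limit of a testis array was percentile 99 of its values below 0, mirrored. The 12 arrays of a tissue entered 1 fit, with a two-sided moderated test and Benjamini-Hochberg adjustment over all probes. Pearson permutation tests used 100000 resamples. Python 3.11.15 and pandas 2.3.3 made the summaries. The number of arrays limits the precision.

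Text names follow a rule: all probes of Tns1 and Palld, their families, the 4 list probes with the lowest p per comparison, the 5 most and 3 least alike probes, the brightest markers, and the neighbours of the threshold. A few items that this rule names are not reported here. The members and lists were chosen with earlier results of these data known. Alternatives were other noise estimates, scalings, floors, filters, weights, a replicate block and each array left out. Tested on simulated data, the fit recovered 60% of log2 changes of 0.5 and 93% of changes of 1 in the kidney high comparison (10903 probes), and 0% and 15% in the testis high comparison (28816 probes). Motifs were searched on both strands of the RefSeq windows.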

Additional observations from a re-analysis of the deposited data

How the results depend on the processing

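Over 20 kidney alternatives Tns1 and Palld stayed below control at all dose rates, Tns1 at −0.17 to −0.05 (low), −0.63 to −0.43 (mid) and −0.48 to −0.35 (high), and Palld at −0.55 to −0.34, −0.82 to −0.61 and −0.90 to −0.67. The mid value of Tns1 was −0.63 with median scaling. The limma adjusted p in kidney, on whose values the genes were chosen, was under 0.05 in 10 (mid) and 5 (high) of 20 for Tns1. For Palld it was so in 6 and 8. In 19 testis alternatives no adjusted p of either gene was under 0.05. Median scaling shifted the median of all testis probes by −0.21 at low and −0.16 at mid, and gave −0.20 for Tns1 and −0.21 for Palld at low. Palld was at −0.015 at low with the floor only and with a floor of 64. With 1 array left out, Tns1 at low ran from −0.012 to 0.14 (below 0 without the second low array). Palld ran from −0.035 to 0.10 at low (below 0 without the first control or the third low array), from −0.11 to 0.026 at mid (above 0 without the third mid array) and from −0.080 to 0.048 at high (above 0 without the second control or the second high array). The testis r of 0.69 was 0.84 with median scaling. Counts of called probes moved far more. Kidney low had 43 calls with array weights and 0 to 0 with arrays left out. Kidney mid (34) had 14 with the replicate block, 2 with central noise, 6 with floored values, 15 with median scaling, 10 without a filter, 1594 with array weights, 0 with only the 2 groups, and 1 (without control 3 or mid 3) to 103 (without high 2) with arrays left out. Kidney high (55) had 27 with the replicate block, 29 with floored values, 19 without a filter, 2063 with array weights, 83 with trend and robust, 0 with only the 2 groups, and 2 (without high 3) to 200 (without control 2). Testis low (5) had 0 with median scaling, 3 with the floor only, 3 with a floor of 64, 0 with trend and robust, 31 with only the 2 groups, and 0 to 11 with arrays left out. Testis mid (15) had 9 with median scaling, 53 with a floor of 64, 42 without a filter, 30 with array weights, 216 with trend and robust, 35 with only the 2 groups, and 0 to 24. Testis high (5) had 0 with median scaling, 80 with a floor of 64, 11 without a filter, 343 with trend and robust, 54 with only the 2 groups, and 0 to 18. The cause was not tested. Kidney arrays of the same number share only that number: 10 of 13 such pairs had a correlation of deviations over 0.1, against 11 of 41 other pairs. With this number as a block the limma adjusted p in kidney was 0.0371 (Tns1) and 0.0155 (Palld) at mid and 0.0530 and 0.0143 at high. No paired analysis was possible in testis because its groups share no replicate number. Actb at high in kidney had limma adjusted p = 0.0387 with median scaling, 0.00342 with array weights and 0.0328 without control 2, and over all 20 alternatives it ran from 0.00342 to 0.273. With array weights the adjusted p in kidney was also under 0.05 for Zyx (0.00378 at mid, 0.00544 at high), Actb at mid (0.0181), Enah at mid (0.0160), Pdlim1 at high (0.00508) and Myl6 at high (0.00539).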

Other observations

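Actb was also lower on irradiated testis arrays in the deposited signals, which was noticed after the values were seen. Its signals were 24741 to 25801 at low, 21640 to 23874 at mid and 23941 to 25414 at high, against 28234 to 29210 in control, so that no irradiated array reached a control array. After quantile normalization the log2 differences were −0.10 ± 0.11, −0.25 ± 0.11 and −0.12 ± 0.11 (SE, n = 3 each, limma adjusted p = 1, 0.633 and 0.774). Zyx and Pdlim1 took opposite sides in the 2 tissues at the high dose rate. In testis Zyx was at 3979 to 4680, against 3499 to 3734 in control (+0.34 ± 0.13, adjusted p = 0.444), and Pdlim1 at 901 to 955, against 729 to 802 (+0.33 ± 0.15, adjusted p = 0.511), while both were lower than control in kidney. At low and mid, testis Pdlim1 was lower than control without overlap (−0.32 ± 0.15 and −0.34 ± 0.15), and testis Zyx overlapped with control. None of these testis differences passed the threshold, and the difference between tissues was not tested.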
